A study of Rattus norvegicus with 12 samples.

Results

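RU486 pretreatment was compared with no pretreatment on 4 hormone backgrounds in neonatal rat heart muscle cells, and the genes described are those that moved the same way on all 4. RU486 (mifepristone) is an antagonist of the glucocorticoid receptor (GR) and the progesterone receptor. The groups with it were RU (RU486 without steroid), CVZ+RU, COR+RU and ALD+RU, and the groups without it were vehicle (ethanol), CVZ (cortivazol, a synthetic glucocorticoid), COR (corticosterone, the main glucocorticoid of the rat) and ALD (aldosterone, the main mineralocorticoid). All were freshly isolated heart muscle cells from the ventricles of Wistar rats 1 day old, enriched by differential adhesion and grown in primary culture, held for 24 h in OPTI-MEM and exposed to ethanol or steroid for 3 h. RU486 was used at 10 µM, and the steroid doses and the length of the pretreatment are not in the labels. The second of 2 experiments supplied all 8 arrays of the pairs, 1 for each group, out of 12 arrays in the series. The other 4 arrays, from the first experiment, hold vehicle, CVZ, COR and ALD without RU486 and were used as a separate view of the steroid response.

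Each pair was 1 Affymetrix array with RU486 minus 1 array of the same background without it, on the log2 scale. The 4 pairs are 4 backgrounds, not repeats of 1 condition. The error given is that of the limma fit, which blends the spread of the RU486 difference between backgrounds with a variance pooled over probe sets. A p-value speaks of the spread among these arrays alone, which may be technical. Of 18625 probe sets tested, 4059 (21.8%) had the same sign in all 4 pairs, 2359 higher with RU486 (12.7%) and 1700 lower (9.13%). A change was called where the sign was the same in all 4 pairs and the limma p-value for the mean of the pairs, adjusted by Benjamini-Hochberg over all tested probe sets, was below 0.05. By this rule 25 probe sets were called (0.134%), 23 higher with RU486 (0.123%) and 2 lower (0.0107%). They hold 19 named genes, with 20 probe sets, and 5 probe sets to which the array annotation gives no gene. At an unadjusted p below 0.05, 2061 probe sets with the same sign in all 4 pairs passed (11.1%). Without any test, 19 were at least 1.5-fold higher in every pair (0.102%) and 6 at least 1.5-fold lower (0.0322%).

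Before their values were divided by the array median, the RU486 arrays had medians of 35.4 to 37.7, against 22.4 to 33.7 for the matched arrays without RU486. Cardiomyocyte markers were strongly expressed on all arrays, and the summed signal of the 15 tested markers was 2753 to 3055 on RU486 arrays, against 3089.8 to 3378 on arrays without it. These groups did not overlap, 8 of the 15 markers were lower in all 4 pairs and 0 were called, with 6 at an unadjusted p below 0.05. Of all tested genes 10.7% were lower in all 4 pairs. The median difference of these markers was -0.16, and it was 0.02 after quantile normalization, which turns its sign. After trimmed-mean scaling it stayed at -0.16, with 10 markers lower in all 4 pairs. The summed signal of the 12 fibroblast markers was 255 to 265 on RU486 arrays, against 281 to 301 without RU486, and that of the 10 smooth muscle markers was 106 to 117 with RU486, against 114 to 127 without, which overlapped. Endothelial marker sums were 12.1 to 14.9 with RU486 and 13.4 to 25.1 without, and macrophage sums 14.1 to 18.9 with RU486 and 17.5 to 19.2 without. Epicardial sums were 4.59 to 6.03 with RU486 and 5.32 to 6.35 without, erythroid sums 28.7 to 37.6 with RU486 and 27.8 to 33.8 without, and Schwann cell sums 5.97 to 6.71 with RU486 and 5.98 to 7.85 without. The groups overlapped for these 5 cell types. In bulk RNA, fewer cells of a type and less RNA per cell cannot be told apart, and the part of the array medians and of these markers in the changes below was not tested.

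Of the 17 genes called on their brightest probe set, 5 stood in a list of genes of the stress pathway that runs through the transcription factor ATF4. In the integrated stress response, kinases that sense amino acid shortage, unfolded protein in the endoplasmic reticulum, haem shortage or double-stranded RNA phosphorylate the initiation factor eIF2-alpha. General translation then slows while ATF4 is made, and ATF4 with partners such as CHOP (Ddit3) and C/EBP proteins switches on genes of amino acid supply, redox balance and, if stress lasts, cell death. GR works differently, as a hormone-bound factor at its own DNA elements, and RU486 blocks it where a steroid has activated it.

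Ddit3, which encodes CHOP, rose most clearly. It had signals of 16.7, 16.6, 16.7 and 14.9 on the RU, CVZ+RU, COR+RU and ALD+RU arrays, against 5.95, 4.98, 6.56 and 6.28 on the vehicle, CVZ, COR and ALD arrays. The lowest RU486 array stood far above the highest array without RU486, and each group kept to a narrow range. The mean of the pairs was 1.44 ± 0.097 on the log2 scale (limma SE, n = 4 pairs), a 2.72-fold rise, with a limma adjusted p of 0.0013. Atf4 itself had 64.4, 59.1, 60.4 and 54.1 with RU486 in the same order of backgrounds, against 42.2, 36.8, 36.7 and 39.3 without RU486. The groups did not overlap, and Atf4 rose by 0.62 ± 0.068 (adjusted p = 0.0128).

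Other called members act downstream in this pathway. Trib3, a pseudokinase induced by ATF4 and CHOP, had 7.12, 6.02, 5.07 and 6.03 with RU486, against 2.11, 1.95, 2.22 and 3.34 without RU486. All RU486 values exceeded all others, and Trib3 rose by 1.33 ± 0.15 (adjusted p = 0.0128). A second Trib3 probe set was called at 1.58, and another stood at 1.32 with an adjusted p of 0.0558. Chac1, an enzyme that breaks down glutathione, had 6.30, 6.91, 6.37 and 5.94 with RU486, against 3.03, 2.89, 2.04 and 2.01 without RU486. Every RU486 array was high and the gap was widest on COR, giving a rise of 1.35 ± 0.12 (adjusted p = 0.00449). Sesn2, a stress-induced inhibitor of mTORC1 signalling that is also a p53 target, had 10.9, 8.80, 8.52 and 8.59 with RU486, against 5.51, 4.70, 4.60 and 5.23 without RU486. It rose by 0.87 ± 0.089 without overlap (adjusted p = 0.0105).

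**Figure D1:**
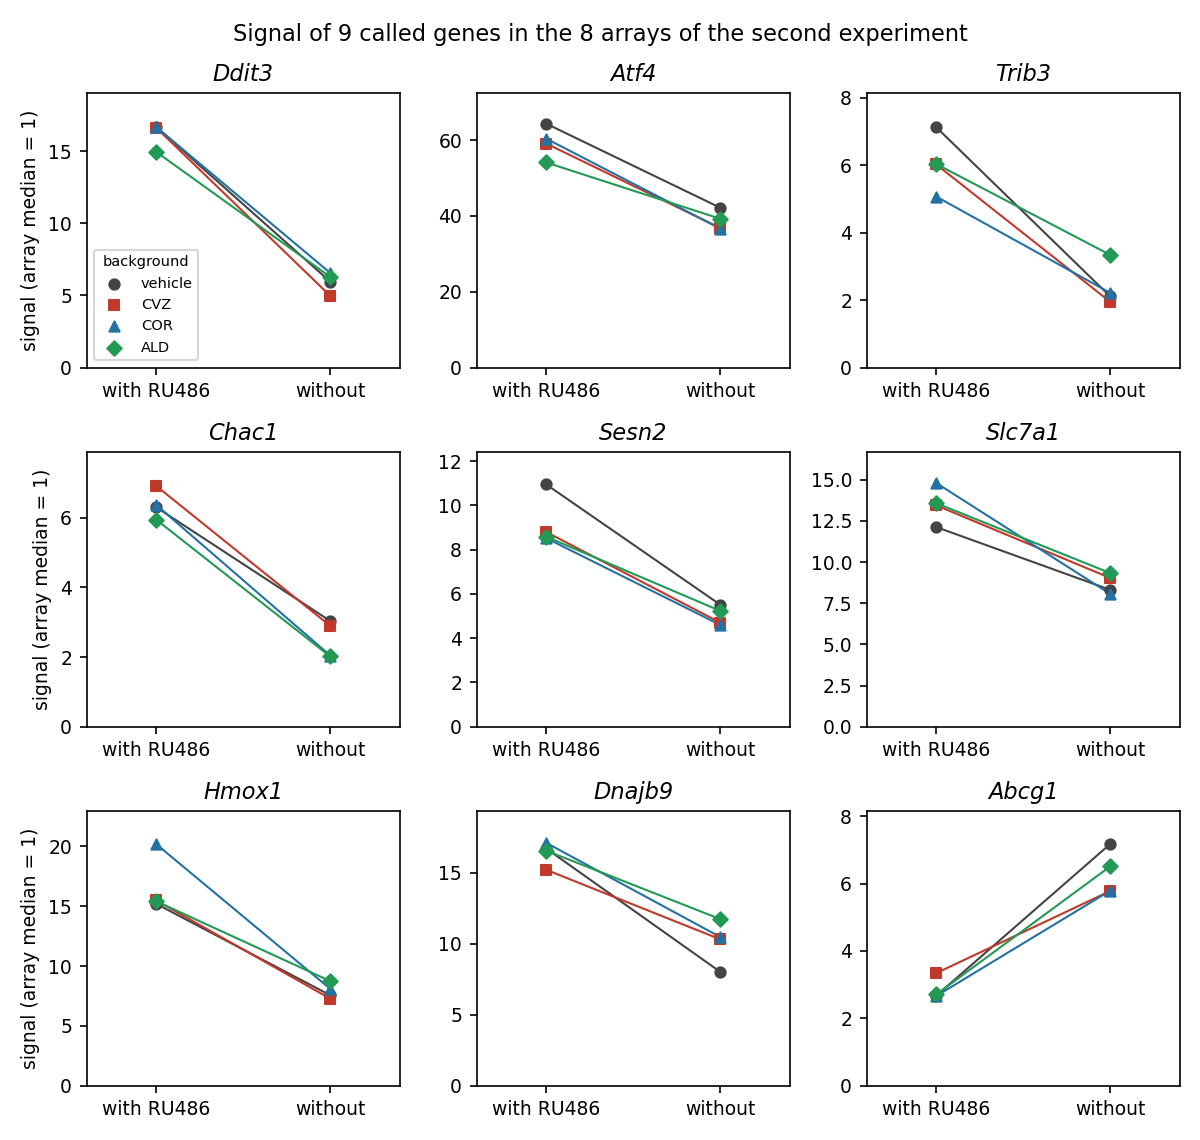
Signal of 9 called genes on the 8 arrays of the second experiment, in units of the array median, with RU486 at the left and without it at the right of each panel. A line joins the arrays of 1 background; in all 9 panels the 4 arrays with RU486 lie apart from the 4 without, higher in 8 genes and lower in Abcg1 (2.66 to 3.34, against 5.78 to 7.17).

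Slc7a1, the main carrier of arginine and lysine into cells, was the called amino acid transporter. Its signals were 12.1, 13.5, 14.8 and 13.6 with RU486, against 8.32, 9.04, 8.07 and 9.34 without RU486. The groups were separate and the difference was 0.63 ± 0.088 (adjusted p = 0.038), but a second probe set of this gene gave 0.20 with mixed signs. Dnajb9, a co-chaperone of the endoplasmic reticulum induced by unfolded protein, had 16.7, 15.2, 17.1 and 16.6 with RU486, against 8.02, 10.3, 10.5 and 11.7 without RU486. The vehicle array was the lowest, so the pair without steroid was the widest (1.05), and the mean rise was 0.70 ± 0.10 (adjusted p = 0.0406).

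Hmox1, haem oxygenase, a target of the oxidative stress factor NRF2 that other stress factors also induce, rose without overlap. Its signals were 15.2, 15.5, 20.2 and 15.4 with RU486, against 7.56, 7.28, 8.09 and 8.74 without RU486. The COR+RU array was the highest of all, and the mean difference was 1.05 ± 0.094 (adjusted p = 0.00449).

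Abcg1, which moves cholesterol out of cells and is a classical target of the liver X receptors (LXR), fell. It had 2.67, 3.34, 2.66 and 2.71 with RU486, against 7.17, 5.78, 5.79 and 6.51 without RU486. All 4 RU486 arrays were at about the same low level, and the fall was -1.13 ± 0.12 (adjusted p = 0.0113). The second, dimmer Abcg1 probe set gave -0.08 with mixed signs. The other fall was Larp1, an RNA-binding protein that restrains translation of ribosomal protein mRNAs. It had 14.7, 11.1, 10.3 and 10.2 with RU486, against 21.8, 18.9, 13.7 and 14.95 without RU486. Its arrays overlapped between the groups although each pair was lower, the difference was -0.57 ± 0.082 (adjusted p = 0.0406), and 3 other Larp1 probe sets lay between 0.03 and 0.06.

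The remaining called genes with a name belong to signalling, transcription and the cell surface. Flrt2, a cell surface adhesion and guidance protein, rose by 1.00 ± 0.12 (adjusted p = 0.0244). It had 5.10, 4.26, 5.49 and 5.62 with RU486, against 2.96, 1.74, 2.34 and 3.26 without RU486. Hes1, a transcriptional repressor best known as a Notch target, had 14.8, 11.9, 13.9 and 15.7 with RU486, against 9.02, 4.90, 7.89 and 9.96 without RU486. The CVZ arrays were the lowest of both groups for Flrt2 and Hes1, and Hes1 rose by 0.86 ± 0.11 (adjusted p = 0.0244).

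Fnip2, a partner of folliculin in nutrient signalling, rose by 0.81 ± 0.10 (adjusted p = 0.0244), with signals of 6.77 to 8.09 with RU486 and 3.77 to 4.41 without RU486, and its second probe set stood at 0.53 (adjusted p = 0.227). Ifrd1, a transcriptional co-regulator, rose by 0.77 ± 0.10 (adjusted p = 0.0313), with 19.8 to 22.9 with RU486 and 9.22 to 13.7 without RU486. Sv2b, a vesicle membrane protein best known from synapses, rose by 0.82 ± 0.11 (adjusted p = 0.0313), at 91.7 to 137 with RU486 and 49.7 to 86.8 without RU486. In these 3 genes no array without RU486 reached an array with it. Jade1, a subunit of a histone acetyltransferase complex, rose by 0.65 ± 0.092 (adjusted p = 0.038), but its 2 other probe sets had mixed signs (0.37 and 0.14). Socs6, of the suppressors of cytokine signalling, rose by 0.50 ± 0.070 (adjusted p = 0.038), with 24.0 to 26.1 with RU486 and 17.1 to 18.8 without RU486.

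Another 2 genes were called on a probe set other than their brightest and are named after their values were seen. Wee1, a kinase that holds back entry into mitosis, gave 1.04 ± 0.15 (adjusted p = 0.0412) on 1 probe set and -0.01 on a brighter one, so the gene as a whole has no single value. Myh1, a fast skeletal myosin heavy chain, gave 0.56 ± 0.077 (adjusted p = 0.035) on the called probe set and 0.28 to 0.47 on its 4 others, all 5 with the same sign in every pair. Myosin heavy chain genes are near copies of each other, so which of them this signal stands for is uncertain.

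**Figure D2:**
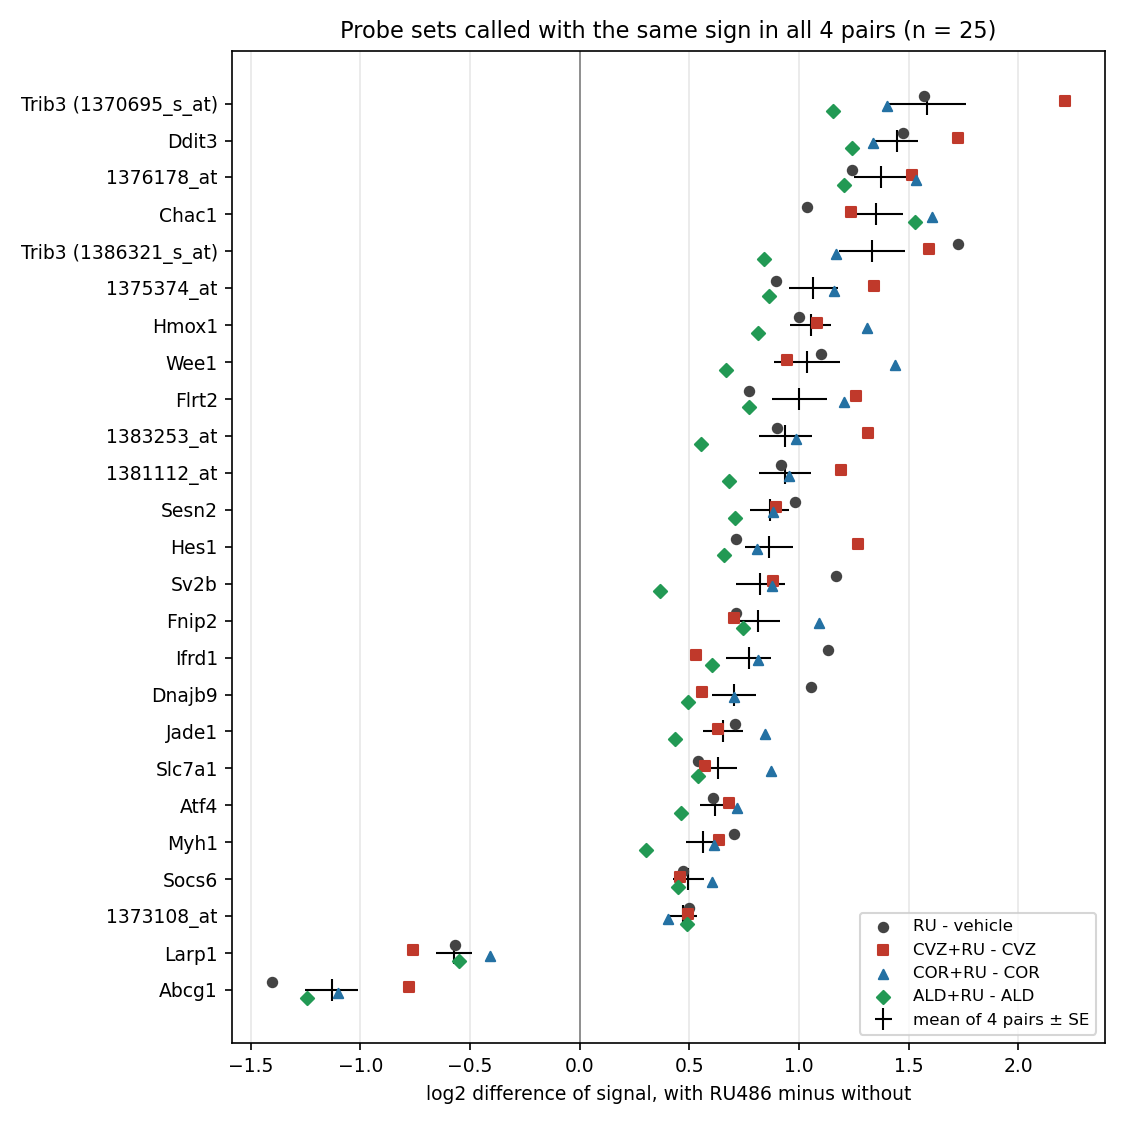
Log2 difference of signal, with RU486 minus without, for the 25 called probe sets (rows, named by gene or, without one, by probe set). Symbols are the 4 backgrounds and the black bar is the mean of the pairs with its SE; all 4 symbols of a row lie on the same side of 0, and the ALD pair is the smallest in 19 of 25 rows.

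Of the 25 called probe sets, 24 had no overlap between the arrays with and without RU486, where 5.41% of all probe sets lay wholly higher and 3.6% wholly lower. Since the call rule uses the same arrays, this count is a description. The sizes differed between backgrounds. The ALD pair was the smallest in 19 of the 25 and the largest in 0, and its median size was 0.67, against 0.92 in the vehicle pair, 0.89 in the CVZ pair and 0.95 in the COR pair. Over all 4059 probe sets with the same sign in every pair, the ALD pair was the smallest in 1447. The ALD array was also the one without RU486 whose median before division (33.7) lay nearest to those of the RU486 arrays, and its part in these sizes was not tested.

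Just outside the threshold stood an unnamed probe set (adjusted p = 0.0504), Dact1 (0.86, adjusted p = 0.0533), Ccnt2 (0.74), Pde4b (0.70) and Cav1 (-0.64), the last 3 at an adjusted p of 0.0558. These are named after their values were seen. Just inside it were Dnajb9 and Wee1.

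Fitting all 12 arrays with the experiment as a block gives the same mean differences. Its residual spread comes from the arrays without RU486 alone, since each RU486 group has 1 array. Its calls are given as a description, and a call by this fit alone adds no support. By this fit 520 probe sets were called (2.79%), 302 higher (1.62%) and 218 lower (1.17%), among them all 25, and with no replicate block the same 12 arrays gave 4. The calls of the 8 arrays also rested on single pairs. Without the COR pair 1 of the 25 was called, Ddit3, without the ALD pair 12, without the CVZ pair 18 and without the vehicle pair 22, and without a mean-variance trend in the fit 0 were called, although all 25 stayed at an unadjusted p below 0.05.

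Ddit3, Chac1, Sesn2, Atf4 and Trib3 were 5 of the 27 tested genes in a list of 29 ATF4 and CHOP stress genes. Of all 10082 tested genes limma called 15 higher and 2 lower. In the list 20 of the 27 (74.1%) were higher with RU486 in all 4 pairs, where 12% of all tested genes were. In this list 0 were lower in all 4 pairs, and its median was 0.39, against -0.00 for all tested genes. Its members were chosen with earlier results of these data known, so these contrasts are not an independent test. The median was alike on the 4 backgrounds, at 0.48 in the vehicle pair, 0.39 in the CVZ pair, 0.43 in the COR pair and 0.39 in the ALD pair. The 15 members with the same sign that were not called lay between 0.25 and 0.97, with adjusted p-values of 0.0718 to 0.406. Among them, named after their values were seen, were asparagine synthetase Asns (0.50, adjusted p = 0.0718), Ppp1r15a, which restarts translation by removing the phosphate from eIF2-alpha (0.58, adjusted p = 0.0896), and the stress hormone gene Gdf15 (0.95, adjusted p = 0.0919). Atf3, a stress-induced partner factor, was uneven, at 1.52 and 1.54 in the vehicle and ALD pairs and 0.54 and 0.30 in the CVZ and COR pairs (adjusted p = 0.215). The fit of 12 arrays gave these members the same mean differences.

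The other 7 members had mixed signs: Herpud1, Ddit4, Cth, Pck2, Eif4ebp1, Nupr1 and Aldh1l2. Herpud1, which serves the breakdown of proteins from the endoplasmic reticulum, shows the contrast with Ddit3. It had 33.5, 34.05, 39.4 and 38.3 with RU486, against 17.4, 86.6, 57.0 and 39.5 without RU486, so the RU486 arrays lay close together, and without RU486 the CVZ array was the highest and the vehicle array the lowest. Its pair differences were 0.95, -1.35, -0.53 and -0.05. In the first experiment, whose arrays the pairs do not use, Herpud1 was 1.45 higher with steroid than with vehicle on average, and Ddit3 was 0.13 lower.

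Charging and uptake of amino acids are served by ATF4 targets as well. Of 19 aminoacyl-tRNA synthetases, the enzymes that load tRNAs with amino acids, 0 were called by limma. At an unadjusted p below 0.05, 9 were higher with the same sign. In all 4 pairs 10 were higher and 0 lower, with a median of 0.20. Of all tested genes 12% were higher and 10.7% lower in all 4 pairs. Quantile normalization and trimmed-mean scaling each gave 9 synthetases higher and 1 lower. The brightest were Aars1 (0.32, adjusted p = 0.157) and Eprs1 (0.25, adjusted p = 0.233). Of 16 amino acid transporters 1 was called, Slc7a1, 8 were higher and 0 lower in all 4 pairs, and the median was 0.25. Slc3a2, the shared heavy chain of several exchangers, had differences of 1.11, 0.11, 1.03 and 1.15 and a mean of 0.85 (adjusted p = 0.0903). Slc38a2, a sodium-coupled carrier of neutral amino acids, gave 0.19 with mixed signs.

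The unfolded protein response of the endoplasmic reticulum shares part of this pathway. Of 23 tested chaperones and factors of that compartment, 1 was called (Dnajb9), 5 were higher and 0 lower in all 4 pairs, and the median was 0.06. The 5 are 21.7% of the list, where 12% of all tested genes were higher and 10.7% lower. After quantile normalization 6 were higher and 1 lower. Hspa5, the principal chaperone of this compartment, had a difference of 0.13 with mixed signs (adjusted p = 0.459), and P4hb, a disulfide isomerase, had -0.08.

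**Figure D3:**
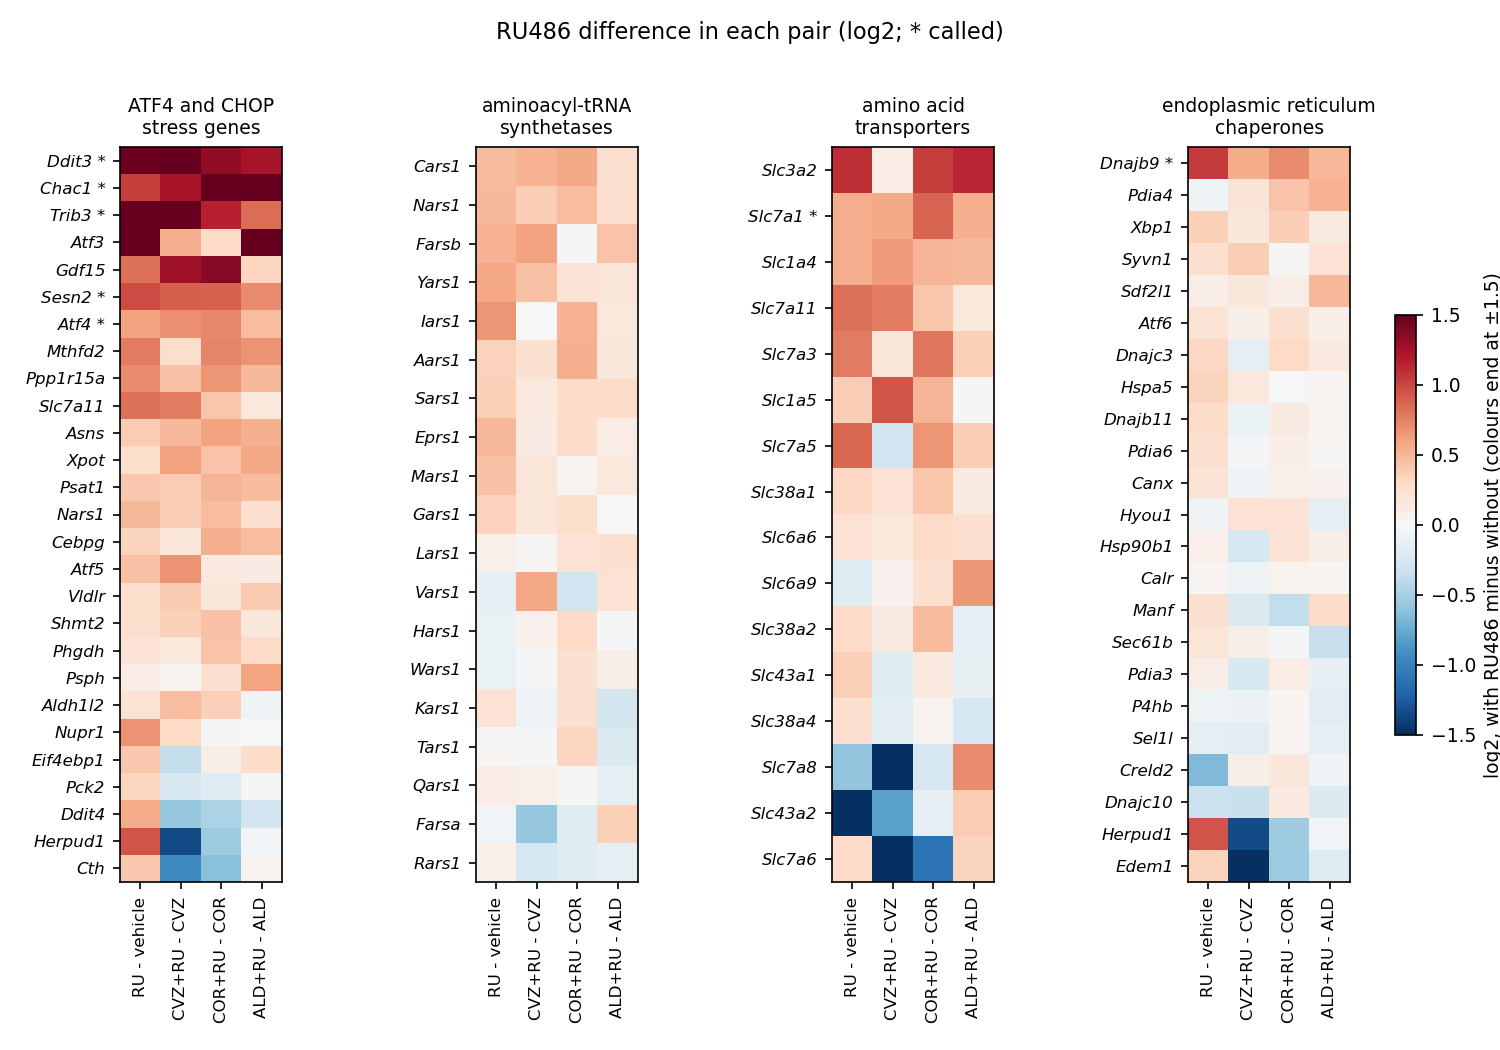
Log2 difference, with RU486 minus without, in each of the 4 pairs (columns) for the tested genes of 4 lists (rows, sorted by the mean of the pairs; asterisk, called). Red is higher with RU486 and blue lower, with colours ending at 1.5 either way; the ATF4 and CHOP panel is red in all 4 columns for 20 of 27 genes, and the chaperone panel for 5 of 23.

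Promoters were searched for known motifs, because the data bear on factors that bind there. RefSeq promoters of the GRCr8 assembly, taken as the 250 bases before the gene start, were found for 16 of the 19 named genes. The composite element of ATF4 with C/EBP, TGATGNAA, was in 4 of the 16 (Chac1, Trib3, Slc7a1 and Larp1), on either strand, and in 3.4% of all 33469 promoters of that length (1.74% of those of tested genes). Larp1 is among the 4 although it fell. The antioxidant response element, TGACNNNGC, was in 3 (Fnip2, Sesn2 and Slc7a1), against 10.1% of all promoters (12.5% of those of tested genes). The endoplasmic reticulum stress element (CCAAT and, 9 bases on, CCACG) was in 0 of the 16 and 0.0657% of all, and the glucocorticoid response element (AGAACA and, 3 bases on, TGTTCT) was in 0 and 0.012%. None of the matches overlapped another. The 4 promoters with the ATF4 element are shown because the 3 called rises among them carry it; each is given 5′ to 3′ on the strand of its gene, Chac1 at chr3:126795881-126796130 (+), Trib3 at chr3:161275534-161275783 (-), Slc7a1 at chr12:11664238-11664487 (+) and Larp1 at chr10:42691583-42691832 (+). Capitals mark a match, which reads TTGCATCA, TTACATCA or TGATGAAA according to strand, and in Slc7a1 also GCGCTGTCA, the antioxidant element on the opposite strand.
Chac1: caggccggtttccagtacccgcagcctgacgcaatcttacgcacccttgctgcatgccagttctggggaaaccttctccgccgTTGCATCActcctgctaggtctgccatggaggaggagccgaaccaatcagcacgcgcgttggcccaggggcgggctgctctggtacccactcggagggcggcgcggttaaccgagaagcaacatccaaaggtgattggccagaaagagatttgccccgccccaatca
Trib3: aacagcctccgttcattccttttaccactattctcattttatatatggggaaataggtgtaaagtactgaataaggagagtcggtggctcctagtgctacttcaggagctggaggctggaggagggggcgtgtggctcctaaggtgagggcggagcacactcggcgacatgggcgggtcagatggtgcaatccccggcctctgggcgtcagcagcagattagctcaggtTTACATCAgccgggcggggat
Slc7a1: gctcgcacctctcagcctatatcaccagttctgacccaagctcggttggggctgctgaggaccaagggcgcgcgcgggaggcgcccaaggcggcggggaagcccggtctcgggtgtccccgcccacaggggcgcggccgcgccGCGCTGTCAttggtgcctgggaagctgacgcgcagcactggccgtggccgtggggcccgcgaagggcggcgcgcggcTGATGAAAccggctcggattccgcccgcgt
Larp1: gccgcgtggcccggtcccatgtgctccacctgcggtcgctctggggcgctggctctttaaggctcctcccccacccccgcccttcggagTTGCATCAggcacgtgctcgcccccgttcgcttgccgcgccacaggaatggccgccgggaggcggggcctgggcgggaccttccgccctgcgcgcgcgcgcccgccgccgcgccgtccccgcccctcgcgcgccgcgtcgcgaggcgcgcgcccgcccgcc
A match is a run of letters, not a site shown to be bound, and the promoters without one say nothing about the factor.

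Of 17 tested NRF2 targets and antioxidant enzymes 1 was called (Hmox1), 8 were higher in all 4 pairs and 3 lower, with a median of 0.26. Of all tested genes 12% were higher in all 4 pairs and 10.7% lower, and quantile normalization gave 10 higher and 1 lower in the list. The 2 brightest, Sod1 (-0.16) and Txn1 (-0.12), were among the lower ones. Gclm, a subunit of the enzyme that starts glutathione synthesis, had 0.51 (adjusted p = 0.115). Srxn1, which repairs peroxiredoxins, had 0.55, 1.35, 0.81 and 0.14, smallest in the ALD pair (adjusted p = 0.148). Nqo1 had the lowest mean of the list (-0.22). Gclm, Srxn1 and Nqo1 are named after their values were seen.

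Of 10 tested cholesterol export and LXR target genes 1 was called (Abcg1), 5 were lower in all 4 pairs and 0 higher, and the median was -0.15. Srebf1, the LXR-driven regulator of fatty acid synthesis, had -0.41, -1.95, -1.45 and -1.04, a mean of -1.21 (adjusted p = 0.0686), and Abca1, the partner exporter of Abcg1, had -0.57, -0.68, -0.56 and -0.76 (adjusted p = 0.122). Both are named after their values were seen. Of 20 sterol synthesis genes 0 were called, with a median of 0.04. At an unadjusted p below 0.05, 2 were higher with the same sign.

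**Figure D4:**
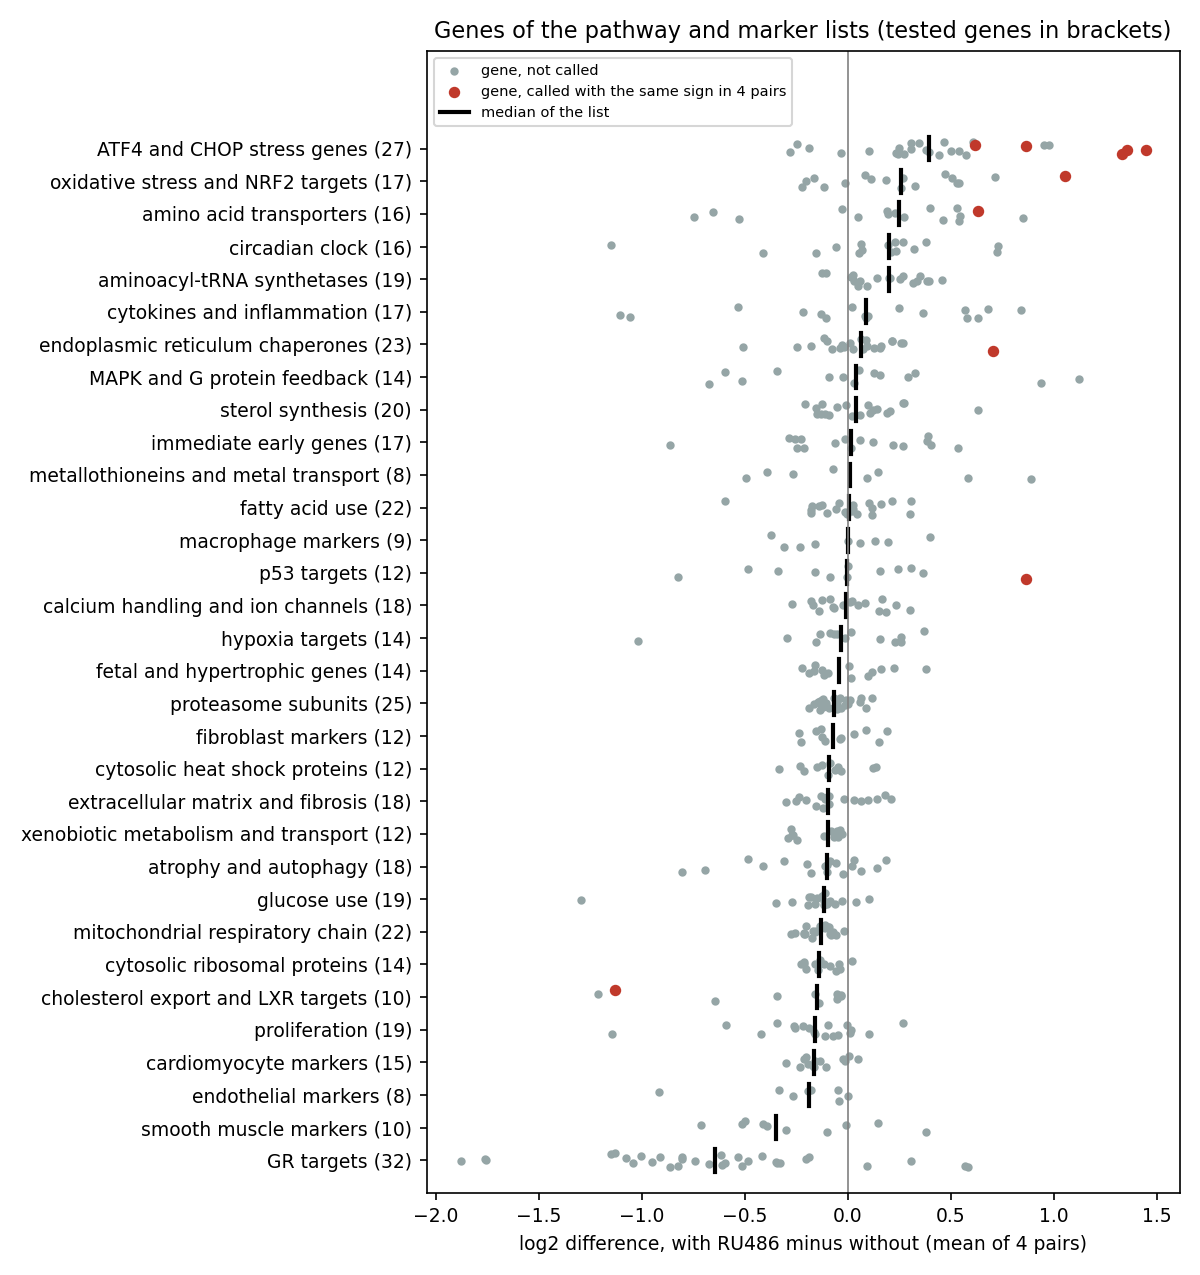
Mean log2 difference of the 4 pairs, with RU486 minus without, for each tested gene (points) of the lists with at least 8 tested genes (rows, ordered by their median, black bar). Red points were called; the ATF4 and CHOP list has the highest median (0.39, 5 of 27 called) and the GR targets the lowest (-0.64, 0 of 32 called).

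Among classical GR targets the RU486 difference varied with the background. Of 32 tested 0 were called by limma. At an unadjusted p below 0.05 with the same sign, 2 were higher and 5 lower. Their median was 0.25 in the vehicle pair, -1.72 in the CVZ pair, -0.89 in the COR pair and -0.31 in the ALD pair. In all 4 pairs 5 were lower (15.6%) and 2 higher (6.25%), where 10.7% of all tested genes were lower and 12% higher. The 5 lower were Anxa1, Dusp1, Glul, Sgk1 and Lcn2, and the 2 higher were Gadd45a and Angptl4, named after their values were seen. Glul is counted by its brightest probe set, and another of its probe sets had mixed signs, at 0.42, -2.04, -0.95 and -0.32. Dusp1, a phosphatase that switches off MAP kinases, had -0.56, -1.14, -0.64 and -0.36 (adjusted p = 0.105). Klf9, a steroid-induced transcription factor, had -1.79, -1.48 and -0.83 in the CVZ, COR and ALD pairs and 0.08 in the vehicle pair.

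In the first experiment 169 probe sets (0.907%) were at least 2-fold higher with every steroid than with vehicle. The 3 comparisons share 1 vehicle array, so a low reading on it alone can bring a probe set into this group. Of the 169, 0 were called for the common effect, where 0.134% of all probe sets were, so the count of 0 is no result about them. In all 4 pairs 28 had the same sign (16.6%), against 21.8% of all. Their median difference with RU486 was 0.19 in the vehicle pair, -0.51 in the CVZ pair, -0.38 in the COR pair and -0.21 in the ALD pair. Of the 25 called probe sets, 23 lay within 0.5 of 0 in the first experiment's mean steroid response (92%), as did 83.9% of all probe sets, and the range was -1.03 to 0.39. This mean can hide a response to 1 of the 3 steroids. It lay below 0 in 17 of the 25, where its median over all tested genes was -0.02. By this mean only an unnamed probe set, 1381112_at, was at least 2-fold lower with steroid, and 0 were 2-fold higher. Of all probe sets 1.19% were 2-fold lower and 2.15% higher (3.34% in either direction). Against vehicle in that experiment, Flrt2 was also more than 2-fold lower with CVZ (-1.15), with -0.20 for COR and -0.11 for ALD. Its RU486 difference was largest in the CVZ pair (1.26), and the part of the CVZ response in it was not tested.

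Over all 18625 probe sets the pair differences correlated at 0.33 between CVZ and COR, 0.16 between CVZ and ALD and 0.17 between COR and ALD. The pair without steroid correlated with these at 0.09, 0.09 and 0.04. No pair shares an array with another, and probe sets are not independent replicates. Against the first experiment's mean steroid response the pairs correlated at 0.05 (vehicle), -0.36 (CVZ), -0.28 (COR) and -0.11 (ALD).

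The RU486 difference with a steroid was then tested against that without one. Of the 25 called probe sets 0 differed by the limma test (lowest adjusted p 0.562), which does not show that they act alike with and without steroid. They were called on the same arrays by a rule that favours agreement between pairs. The test thus had little room to find a difference among them. Differences ran from -0.52 to 0.42, and their 95% intervals reached 0.32 to 0.98 to either side. For Ifrd1 (-0.48), Sv2b (-0.46) and Dnajb9 (-0.47) the unadjusted p was below 0.05 and the interval did not reach 0. There is 1 pair without steroid, so the residual spread in this test comes from the 3 steroid pairs alone. It has 2 residual degrees of freedom beside 6.59 from the prior, so the errors rest largely on a variance pooled over probe sets. Over all probe sets 5 differed (0.0268%), all lower with steroid, and 1480 had an unadjusted p below 0.05. The count was 2 after quantile normalization, 0 after trimmed-mean scaling, 0 with no filter on low values and 0 without the COR pair.

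Lrrc10, a leucine-rich repeat protein of heart muscle, was the 1 with the gene's brightest probe set. It had 90.9, 104, 99.8 and 100.2 with RU486, against 73.9, 156, 152 and 150.2 without RU486. Arrays with RU486 stood between the vehicle array and the 3 steroid arrays. The pair differences were -0.58, -0.60 and -0.58 on CVZ, COR and ALD and 0.30 on vehicle, and the difference with steroid minus without was -0.89 ± 0.095 (adjusted p = 0.0341, and 0.183 after quantile normalization). Tent5b, a poly(A) polymerase, was called on a dimmer probe set and is named after its values were seen. It had 0.82, 1.77, 1.27 and 1.37 with RU486, against 0.19, 10.5, 8.17 and 4.81 without RU486, a difference of -4.08 ± 0.40 (adjusted p = 0.0192, and 0.0543 after quantile normalization). The vehicle level is near the floor of the array, which makes the size uncertain. In the first experiment both were higher with steroid, Lrrc10 by 1.02 and Tent5b by 5.47 on average.

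**Figure D5:**
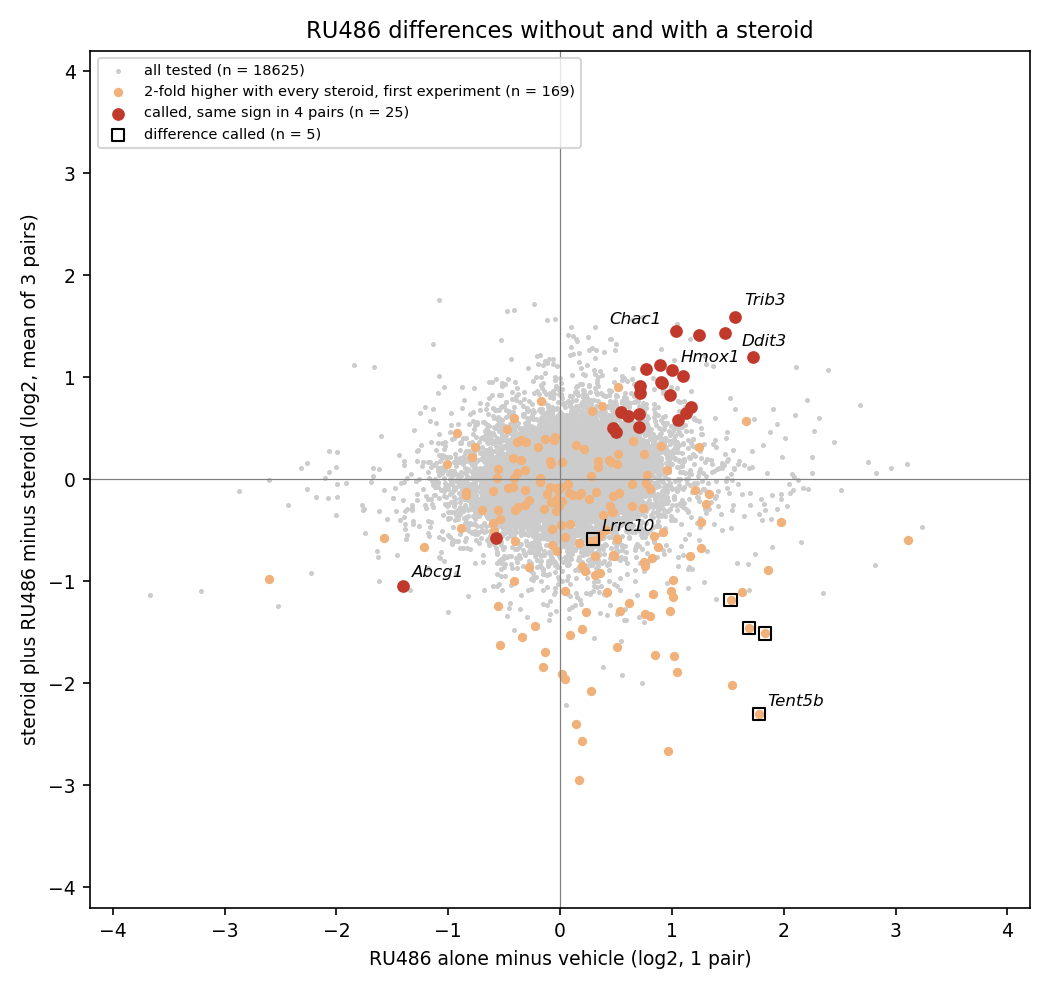
Log2 difference with RU486 minus without: RU486 alone minus vehicle (horizontal, 1 pair) against steroid plus RU486 minus steroid (vertical, mean of the CVZ, COR and ALD pairs), 1 point for each of 18625 probe sets. The 25 called probe sets (red) lie in the upper right and lower left quadrants, and the 5 with a called difference (squares) lie at the lower right. The 169 at least 2-fold higher with every steroid than with the 1 vehicle array of the first experiment (orange) reach down.

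Steroid receptor genes were not called by limma on the 8 arrays. Nr3c1, which encodes GR, had 10.5, 10.2, 10.8 and 9.77 with RU486, against 9.54, 6.04, 7.14 and 8.92 without RU486. It was low on the CVZ and COR arrays and level on all RU486 arrays, with a mean difference of 0.40 ± 0.12 (adjusted p = 0.217, and 0.0144 in the fit of 12 arrays). Nr3c2, the mineralocorticoid receptor, gave 0.19 ± 0.13 (adjusted p = 0.561), and Pgr, the progesterone receptor, was below the filter on low values and not tested.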

How the data were processed

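Total RNA of each culture was measured on 1 Affymetrix rat array. Per the submitters' processing notes the deposited values are MAS5 signals, an intensity on a linear scale. Tested on the values, every array had a median of 1, so the deposited signals had been divided by that array's median. The median before division was read back from the steps of the values. For the log2 scale 0.0696 was added to each deposited intensity, the 10th percentile of all values, which understates changes of dim probe sets. After 57 control probe sets were set aside, 18625 of 31042 probe sets were tested, those whose mean log2 value exceeded the 40th percentile of all (signal plus pseudocount of 0.63). Of the 31042, the array annotation gave 1 gene for 20826, several for 436 and none for 9780. Current rat symbols came from RefSeq (GRCr8), where 20758 probe sets matched.

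The 8 arrays of the second experiment were fitted in limma 3.58.1 (R 4.3.3; lmFit, then eBayes allowing a mean-variance trend), with the background as a block. It left 3 residual degrees of freedom, and 6.45 from the prior made a total of 9.45, so the errors rest largely on a variance pooled over probe sets. The difference with steroid minus without left 2 residual degrees of freedom. p-values were adjusted by Benjamini-Hochberg. The labels number the experiments, and in the first experiment deviations from group means correlated at 0.512 to 0.567 between groups, so the experiment was the block in the fit of 12 arrays. No 2 arrays were duplicates (correlations of 0.925 to 0.967), and nothing says that the cultures of the pairs were separate preparations. The number of arrays limits the precision.

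Genes were named by the probe set of highest mean. These were the called genes, up to 5 called differences in each direction, up to 4 called and 2 brightest uncalled members of each list, and the receptors Nr3c1, Nr3c2 and Pgr; not all are reported. The members and lists were chosen with earlier results of these data known. The procedure was run on simulated data with independent errors drawn from the variances of the same fit. That run cannot show how far the calls depend on a single pair or on the variance model. Figures were drawn with Python 3.11.15 and matplotlib 3.10.9. Alternatives covered the pseudocount, filter, scaling, variance model, arrays in the fit, block, call rule and single pairs. Numbers of called and same-sign genes over all other lists are under other observations.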

Additional observations from a re-analysis of the deposited data

Results flagged for a closer look

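In 3 called genes the COR pair stood apart from the other 3 pairs, with a gap that took up more of the range than chance gives in about 1 of 20 groups of 4 (0.829 of it). That cutoff is for 4 repeats of 1 condition, while the pairs are 4 backgrounds. It was not adjusted for the number of genes looked at. The gap was 0.893 of the range for Fnip2, whose differences were 0.71 (vehicle), 0.70 (CVZ), 1.09 (COR) and 0.74 (ALD). It was 0.901 for Slc7a1, with 0.54, 0.57, 0.87 and 0.54 in the same order, and 0.866 for Socs6, with 0.47, 0.46, 0.60 and 0.45. The COR pair was the high one in all 3, and every pair was above 0.

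The RU486 difference with a steroid was set apart from that without one in 5 probe sets by the limma test of the difference. It was -0.886 for Lrrc10 and -4.08 for Tent5b. The 3 others have no gene in the array annotation: 1380306_at (-3.15), 1392613_at (-3.34) and 1397225_at (-2.70). All 5 were lower with RU486 in each of the 3 steroid pairs and higher with RU486 alone than with vehicle, and all 5 were higher with steroid in the first experiment. The probe set 1380306_at had 4.54, 10.5, 8.89 and 9.86 with RU486 on vehicle, CVZ, COR and ALD, against 1.36, 34.2, 27.7 and 20.4 without RU486.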

How the results depend on the processing

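Calls at an adjusted p below 0.05 depended on how the spread was estimated. None of the 17 genes called on their brightest probe set changed sign under any of the 17 alternatives, but most of these could not change it. A call needs the same sign in all 4 pairs, so another pseudocount or a pair left out cannot reverse the mean. The filter, the variance model, the block and steroid terms and the 12 arrays with the experiment as block leave the mean as it is. Only the other scalings and the 12 arrays with no replicate block could have turned a sign. Of 18625 probe sets, 25 were called for the common effect and 5 for the difference with steroid minus without. The counts stayed within 1.5 times of these for the common effect with other pseudocounts (25 and 27), a filter at the 60th percentile (35), quantile normalization (31) and trimmed-mean scaling (29). They moved to 15 and 0 without a filter, to 48 with a robust fit, and to 0 and 0 without a mean-variance trend, where the smallest adjusted p was 0.163 and 1921 had an unadjusted p below 0.05 and the same sign. With signals before division by the median they moved to 5957 and 61, with a median of all probe sets 0.44 higher with RU486 and 99.9% of calls higher, against 92% in the values given. The difference count was 2 after quantile normalization and 0 after trimmed-mean scaling. With all 12 arrays the counts were 520 and 203 with the experiment as replicate block, and 4 and 0 with no replicate block. Without the background as a block 58 were called, and with a term for steroid 56. Leaving out 1 pair gave 1 to 81 for the common effect and 0 to 37 for the difference, which has no value without the vehicle pair. The lowest count, 1, came without the COR pair and the highest, 81 (35 higher, 46 lower), without the vehicle pair. Within a background, deviations of the arrays with and without RU486 from their group means correlated at -0.016 to 0.106. Ddit3 lost its call in 1 of the 17 alternatives (no trend), Hmox1 in 2, and Larp1 in 9. The cause of these changes was not tested. Fewer arrays and fewer degrees of freedom stand behind the counts with a pair left out.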

Other observations

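Circadian clock genes were higher with RU486 in all 4 pairs in 6 of 16 tested cases (37.5%) and lower in 0, with a median of 0.20. Of all tested genes 12% were higher and 10.7% lower. The list median was 0.32 in the vehicle pair, -0.01 in the CVZ pair, 0.16 in the COR pair and 0.08 in the ALD pair. Of the clock genes, 6 were higher and 2 lower after quantile normalization, and the same after trimmed-mean scaling. Limma called 0 of them, and 5 had the same sign and an unadjusted p below 0.05. Bhlhe41 and Dbp are named after their values were seen. Bhlhe41, a repressor of the clock, had 0.36, 1.21, 0.81 and 0.53 in the vehicle, CVZ, COR and ALD pairs, and Dbp, an output factor of the clock, had 0.32, 1.37, 0.90 and 0.29. The brightest clock gene by the naming rule that was higher in every pair, Nr1d2, had a mean of 0.27 (adjusted p = 0.229). Per1, a clock gene that glucocorticoids induce, had -1.46, -2.29 and -1.90 in the CVZ, COR and ALD pairs and 1.05 in the vehicle pair.

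Contractile genes of smooth muscle were lower in all 4 pairs in 6 of 10 tested cases and higher in 1 (Myocd), with a median of -0.35 that stayed negative under quantile normalization (-0.36). Limma called 0, and 6 had the same sign and an unadjusted p below 0.05, 5 of them lower. Mylk and Tagln are named after their values were seen. Mylk, myosin light chain kinase, had -0.83, -0.98, -0.88 and -0.17 (adjusted p = 0.148). Tagln, an actin-binding protein of smooth muscle, had 8.64, 7.09, 7.204 and 8.40 with RU486, against 10.1, 13.2, 11.3 and 9.97 without RU486, and a mean difference of -0.50 (adjusted p = 0.156).

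Genes of the mitochondrial respiratory chain (11 of 22 lower in all 4 pairs, median -0.13) and cytosolic ribosomal proteins (7 of 14 lower, median -0.14) had medians of -0.02 and -0.02 after quantile normalization, where 6 and 2 were lower in all 4 pairs. After trimmed-mean scaling 18 and 9 were lower in all 4 pairs, with medians of -0.13 and -0.14. Limma called 0 in both lists, and 10 and 6 were lower with an unadjusted p below 0.05. Among the brightest 20% of probe sets 15.2% were lower in all 4 pairs, against 9.13% of all, and the part of signal level in these lists was not tested.

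In the remaining lists limma called 0 genes, other than Sesn2 among p53 targets. Medians were 0.09 for cytokines and inflammation (17 tested, 1 higher and 1 lower in all 4 pairs), 0.04 for MAPK and G protein feedback (14; 2 and 2), 0.01 for immediate early genes (17; 4 and 1), 0.01 for metallothioneins and metal transport (8; 1 and 2) and 0.01 for fatty acid use (22; 3 and 2). They were -0.03 for hypoxia targets (14; 3 and 0), -0.04 for fetal and hypertrophic genes (14; 3 and 1), -0.01 for calcium handling (18; 1 and 3), -0.07 for proteasome subunits (25; 0 and 7) and -0.09 for cytosolic heat shock proteins (12; 0 and 4). Extracellular matrix genes had -0.10 (18; 1 and 5), xenobiotic metabolism -0.10 (12; 0 and 1), atrophy and autophagy -0.10 (18; 2 and 0), glucose use -0.12 (19; 1 and 5) and proliferation -0.16 (19; 0 and 4). Among p53 targets (12; 5 and 1) the median was -0.00. Of progesterone receptor targets 3 were tested, with a median of -0.36 and 1 lower in all 4 pairs. Over these lists the counts with the same sign and an unadjusted p below 0.05 were at most 3 in either direction.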
